A study of Mus musculus with 3 samples.

Results

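The 39 genes of the mouse Hox clusters were described in single-cell RNA sequencing of 3 kinds of stem cell aggregate. The members were all genes whose symbol is Hox, a cluster letter from a to d and a paralogue number, which took 39 of the 32285 genes in the count tables and left out the noncoding and antisense genes that lie between them. The aggregates were BELAs (bilayered embryo-like aggregates, with an epiblast-like core inside a layer of visceral endoderm), Epi cysts of epiblast-like (Epi) cells alone, and VE cysts of visceral endoderm-like (VE) cells alone, with 1 library each. All were grown from iGATA mouse embryonic stem cells of the E14tg2a background, which carry a doxycycline-inducible GATA4-mCherry transgene.

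Clone C6 is named for BELAs and VE cysts, and the labels give no clone for Epi cysts. For BELAs, cells received 0.5 µg/ml doxycycline for 8 h in the self-renewal medium 2i + LIF, then 16 h in N2B27 medium without added factors, and were replated on gelatin in N2B27 for 3 days. VE cysts had the same doxycycline pulse, a further 16 h of doxycycline in N2B27 with FGF4 (10 ng/ml) and heparin (1 µg/ml), and 3 days with these factors after replating. Epi cysts received no doxycycline and were embedded in growth factor-reduced matrigel for 1 day of 2i + LIF and 3 days of N2B27. BELAs and VE cysts were picked by hand for round shape, and VE cysts with a visible core of Epi-like cells were passed over at picking. These are in vitro models from 1 engineered line. With 1 library per aggregate, the aggregate, the doxycycline treatment, the medium, the matrix and the library cannot be told apart.

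Hox genes encode homeodomain transcription factors that give cells their position along the head to tail axis of the embryo. In the mouse they lie in clusters named a to d, and genes with the same number in different clusters, called paralogues, descend from a common ancestor. The low-numbered genes at the 3′ end of each cluster are switched on first, in the posterior of the gastrulating embryo and then in the hindbrain, and respond to retinoic acid and Wnt signals, while higher-numbered genes follow later and more posteriorly. Most work on these genes concerns the embryo proper rather than the visceral endoderm, an extraembryonic layer that nourishes and patterns the epiblast.

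The clusters lie at chr6:52155590-52260880 (Hoxa, 11 genes, minus strand), chr11:96194316-96368256 (Hoxb, 10 genes, plus strand), chr15:102921103-103036852 (Hoxc, 9 genes, plus strand) and chr2:74668310-74765142 (Hoxd, 9 genes, plus strand) in GRCm38. To show the letters that lie before the genes the results turn on, the 250 bases upstream of the RefSeq start are printed for Hoxb1 and Hoxa2, which were among the 4 highest members in Epi cysts, and for Hoxb4, which was among the 5 highest in both VE groups. They are written 5′ to 3′ on the gene's strand. Capitals mark TGATNNAT, a motif bound by HOX proteins together with their PBX partners, and AGGTCA, the half-site of nuclear receptors such as the retinoic acid receptors, both searched on either strand.
Hoxb1, chr11:96365508-96365757, plus strand: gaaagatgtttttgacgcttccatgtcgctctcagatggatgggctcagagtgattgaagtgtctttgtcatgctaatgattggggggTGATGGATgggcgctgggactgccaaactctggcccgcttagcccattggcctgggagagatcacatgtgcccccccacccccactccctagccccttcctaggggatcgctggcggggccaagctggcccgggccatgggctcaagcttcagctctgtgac
Hoxa2, chr6:52164832-52165081, minus strand: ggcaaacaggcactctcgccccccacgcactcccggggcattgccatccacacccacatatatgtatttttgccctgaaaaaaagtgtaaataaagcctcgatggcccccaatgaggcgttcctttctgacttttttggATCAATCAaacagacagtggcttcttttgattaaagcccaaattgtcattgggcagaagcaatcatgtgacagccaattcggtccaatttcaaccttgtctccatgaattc
Hoxb4, chr11:96318017-96318266, plus strand: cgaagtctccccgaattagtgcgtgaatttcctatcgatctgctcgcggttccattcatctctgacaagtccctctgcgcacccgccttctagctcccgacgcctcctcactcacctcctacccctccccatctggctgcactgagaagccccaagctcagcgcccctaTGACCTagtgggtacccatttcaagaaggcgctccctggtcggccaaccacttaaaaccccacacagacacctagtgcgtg
The last bases of the Hoxb1 window lie in the first exon of a longer Hoxb1 annotation, the Hoxa2 window lies within the span of the predicted gene Gm28308 on the same strand but in none of its exons, and the Hoxb4 window overlaps no annotated gene. TGATNNAT was found in 4 of the 24 windows available for 22 members (16.7%), those of Hoxa2, Hoxb1, Hoxb8 and the more 3′ start of Hoxd11, against 7.68% of all 32851 windows in the table. AGGTCA was found in 6 of 24 (25%; Hoxb4, Hoxc4, Hoxd3, Hoxd4, Hoxd8 and Hoxd10) against 14% of all windows, and in neither Hoxa2 nor Hoxb1. TATAAA was found in 4 of 24 (16.7%) against 12.4%. These are matches of letters in a short window, and binding was not measured. The window of Hoxb2 was not analysed here.

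Levels are given as CPM, the UMIs of a gene (unique molecular identifiers, each standing for 1 captured transcript) divided by all UMIs of the group and multiplied by 1000000. Because UMIs are counted at the 3′ end, a level was not divided by gene length, and the order of different genes also carries how well each one's end is captured and annotated. Intervals in parentheses are exact 95% Poisson intervals (Clopper-Pearson for shares of cells) and cover counting error only. There is no replicate library, so no test was made. Barcodes were kept as cells from 4000 detected genes upwards if no more than 10% of their UMIs were mitochondrial, and a cell was called VE where the summed UMIs of Gata6, Sox17, Dab2 and Cubn exceeded those of Pou5f1, Sox2, Nanog and Fgf4, and Epi otherwise. This left 656 Epi cells of Epi cysts, 868 Epi and 542 VE cells of BELAs, and 577 VE and 48 Epi cells of VE cysts, with median depths of 60131, 78973, 90251, 56914 and 87189 UMIs. The single VE cell of the Epi cysts was not used. No cell barcode kept in 1 library was kept in another (2 and 1 were shared before the filter between Epi cysts and, in turn, BELAs and VE cysts). The 8 genes of this rule differ between the lineages by construction and are no check of the labels; as a description, the 4 VE markers together had 2842 and 3003 CPM in VE cells of BELAs and VE cysts against 23.2 and 2.96 CPM in Epi cells of BELAs and Epi cysts, and Pou5f1, the pluripotency factor OCT4, had 600.7 and 480.1 CPM in Epi cells of Epi cysts and BELAs against 35.2 and 17.7 CPM in the VE groups. Foxa2, an endoderm transcription factor that the rule did not use, had 51.7 and 78.9 CPM in VE cells of BELAs and VE cysts against 0.97 and 1.25 CPM in Epi cells of BELAs and Epi cysts.

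Summed over the 39 genes, the Hox level was 147 CPM (144 to 151; 6023 UMIs) in Epi cyst cells. It was 2.62 CPM (2.26 to 3.02; 189 UMIs) in Epi cells of BELAs, 56.2-fold lower (48.6 to 65.3). It was 47.8 CPM (46.0 to 49.7) in VE cells of BELAs and 47.8 CPM (45.5 to 50.1) in VE cells of VE cysts. The Epi cells of the 2 main aggregates thus lay on either side of the VE cells, whose levels differed between libraries by less than counting error (ratio 1.00, 0.94 to 1.06). The 48 Epi cells of VE cysts held 34 Hox UMIs, or 7.90 CPM (5.47 to 11.03), of which 76.5% came from 5 cells.

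The make-up by paralogue group also differed between the groups of cells. In Epi cyst cells paralogue groups 1 and 2 held 94.8% of all Hox UMIs (94.2 to 95.4) and groups 6 to 13 held 1.08%. In Epi cells of BELAs, with 189 Hox UMIs in all, groups 1 and 2 held 16.9% (11.9 to 23.1) and groups 6 to 13 held 80.4% (74.0 to 85.8). In VE cells groups 1 and 2 held 9.71% in BELAs and 9.73% in VE cysts, and groups 6 to 13 held 74.5% (72.8 to 76.2) and 67.5% (65.2 to 69.7). The mean paralogue number per UMI was accordingly 1.51 in Epi cyst cells, 8.14 in Epi cells of BELAs, 7.32 in VE cells of BELAs and 7.06 in VE cells of VE cysts. By cluster, Epi cyst cells drew 59.2% from Hoxa, 40.2% from Hoxb and less than 1% from Hoxc and Hoxd together (18 and 22 UMIs). Epi cells of BELAs drew 16.9%, 51.9%, 17.5% and 13.8% from Hoxa to Hoxd, VE cells of BELAs drew 39.5%, 28.1%, 20.6% and 11.9%, and VE cells of VE cysts 40.9%, 27.9%, 19.5% and 11.7%.

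In Epi cyst cells 6 members reached 1 CPM, all of them in the Hoxa and Hoxb clusters and in paralogue groups 1, 2, 3 and 5. Those described singly stood in the order Hoxb2, Hoxb1, Hoxa2, Hoxa3, Hoxa5, and the intervals of neighbours in it did not overlap.

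Hoxb1 (ENSMUSG00000018973, chr11:96365752-96368256), which marks a segment of the hindbrain and maintains its own transcription there through HOX-PBX sites near its promoter, had 25.8 CPM (24.2 to 27.4) in Epi cyst cells, 0.028 CPM (2 UMIs) in Epi cells of BELAs, 0.018 CPM (1 UMI) in VE cells of BELAs and 0.056 CPM (2 UMIs) in VE cells of VE cysts. It was thus at or under 2 UMIs in the other main groups, while in Epi cysts 293 of 656 cells (44.7%) held it. The ratio between the Epi groups was 929, with a counting interval of 256 to 7678 that reflects the 2 UMIs in BELAs.

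Hoxb2 (ENSMUSG00000075588, chr11:96350525-96354012), a hindbrain gene that Hoxb1 activates, had 32.3 CPM (30.6 to 34.1) in Epi cyst cells, from 258 cells (39.3%). It had 3 UMIs each in Epi and VE cells of BELAs (0.042 and 0.055 CPM) and 7 in VE cells of VE cysts (0.197 CPM), and the ratio between the Epi groups was 777 (265 to 3771). It outweighed Hoxb1 in UMIs while being found in fewer cells. In the 48 Epi cells of VE cysts Hoxb2 was the leading member, with 10 UMIs in 3 cells.

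Hoxa2 (ENSMUSG00000014704, chr6:52162417-52164831), which patterns the hindbrain and the second pharyngeal arch, had 12.6 CPM (11.6 to 13.8) in Epi cyst cells, from 239 cells (36.4%). The other main groups held 2, 3 and 2 UMIs, at most 0.056 CPM, and the ratio between the Epi groups was 455 (125 to 3768). The paralogue pair Hoxa2 and Hoxb2, the whole of group 2, gave 6 UMIs in VE cells of BELAs and 9 in those of VE cysts.

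Hoxa3 (ENSMUSG00000079560, chr6:52169062-52213336), needed for the thymus and parathyroid, and Hoxa5 (ENSMUSG00000038253, chr6:52201754-52204587), needed for the lung and the neck vertebrae, were detected at lower levels. Hoxa3 had 3.11 CPM (2.59 to 3.70; 97 cells) in Epi cyst cells, 1 UMI in Epi cells of BELAs, 0.59 CPM (0.40 to 0.83) in VE cells of BELAs and 1.27 CPM (0.92 to 1.70) in VE cells of VE cysts. Hoxa5 had 1.66 CPM (1.29 to 2.11; 55 cells), 0 UMIs, 1.71 CPM (1.38 to 2.09) and 2.45 CPM (1.96 to 3.02) in the same order. Hoxa5 was thus at least 39.98-fold higher in Epi cyst cells than in Epi cells of BELAs, taking 3 counts as the limit that a count of 0 allows, and did not differ beyond counting error between Epi cyst cells and VE cells of BELAs (1.03-fold higher in the latter, 0.74 to 1.42), while VE cells of VE cysts had 1.47-fold more than Epi cyst cells (1.06 to 2.05).

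The other 33 members were under 1 CPM in Epi cyst cells. Of these, 18 were detected, at 0.024 to 0.54 CPM, led by Hoxa4 (22 UMIs), Hoxb3 (18), Hoxa7 (17), Hoxc13 (14), Hoxd13 (12) and Hoxb7 (10), and 8 of the 18 rested on 1 to 3 UMIs. The intervals of neighbours overlapped from Hoxa4 downwards. The 15 at 0, each limited to 0.073 CPM by 3 counts, were Hoxa6, Hoxa9, Hoxa11, Hoxa13, Hoxb13, Hoxc6, Hoxc8, Hoxc10, Hoxc11, Hoxc12, Hoxd3, Hoxd4, Hoxd8, Hoxd9 and Hoxd12. Hoxd1, a paralogue of Hoxb1, had 8 UMIs (0.196 CPM, 0.084 to 0.39). Along Hoxb the level was 25.8, 32.3, 0.44 and 0.147 CPM from Hoxb1 to Hoxb4, and in Hoxa the level of Hoxa5 lay above that of Hoxa4.

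**Figure D1:**
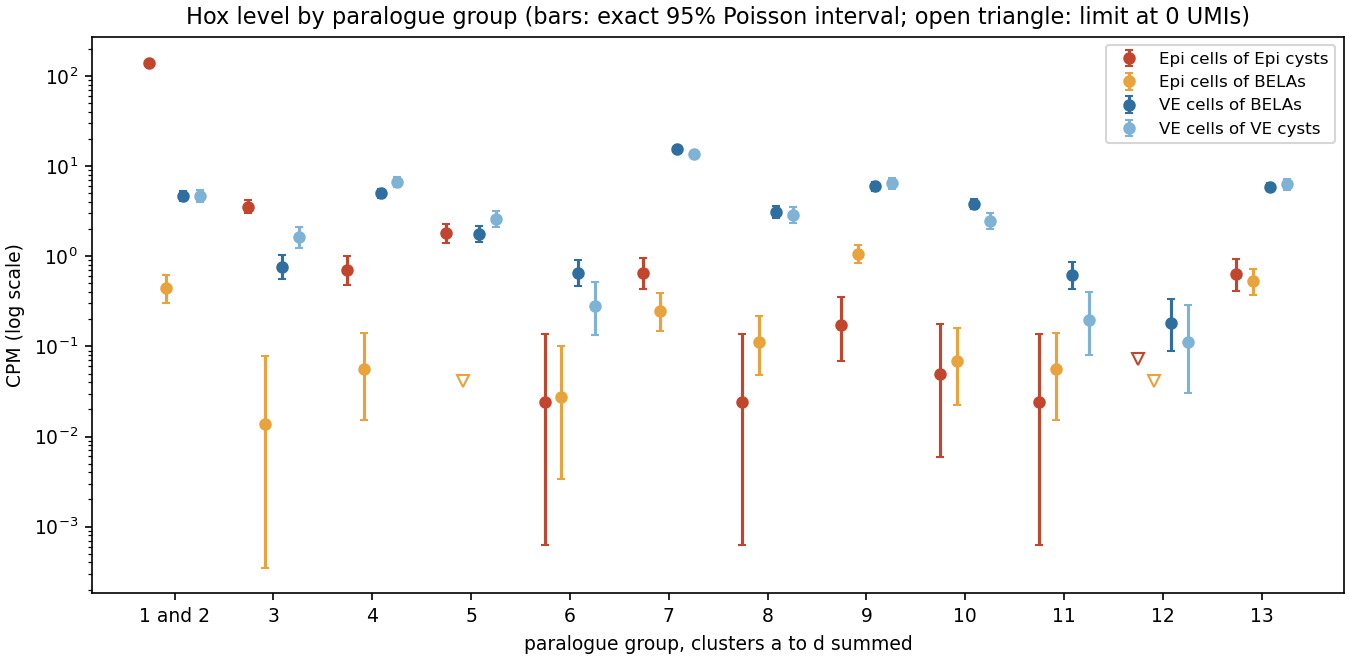
Level of each paralogue group, with clusters summed and groups 1 and 2 pooled, in the 4 main groups of cells (CPM, log axis; bars are exact 95% Poisson intervals and open triangles the limit for a group at 0 UMIs). Epi cyst cells lie highest at groups 1 and 2 (139.7 CPM) and below both VE groups at group 4 and from group 6 on, with VE cells highest at group 7 (15.4 and 13.6 CPM).

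In Epi cells of BELAs only 1 member reached 1 CPM, and it was not one of those of Epi cysts. Hoxb9, a gene of the thoracic skeleton, had 1.01 CPM (0.79 to 1.27), from 73 UMIs in 61 of 868 cells (7.03%), against 0.12 CPM (5 UMIs) in Epi cyst cells, 1.25 CPM (0.97 to 1.58) in VE cells of BELAs and 1.63 CPM (1.24 to 2.11) in VE cells of VE cysts. It was 8.28-fold higher in Epi cells of BELAs than of Epi cysts (3.39 to 26.3), which made paralogue group 9 the only one whose interval lay higher in BELAs (6.24-fold, 2.89 to 16.0). Further members in BELAs were Hoxc13 at 0.37 CPM (27 UMIs) and Hoxd1 at 0.153 CPM (11 UMIs), and 15 members were at 0, among them Hoxa4, Hoxa5 and Hoxb3.

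Droplet libraries carry free RNA between cells, so the members in Epi cells of BELAs were set beside the same members in VE cells of that library. Hoxa7, Hoxb7, Hoxa10, Hoxb4 and Hoxc9 were 59.7-fold (32.1 to 125), 63.8-fold, 65.7-fold, 83.8-fold and 89.3-fold higher in VE cells. These folds rest on 10, 8, 3, 3 and 2 UMIs in Epi cells, so their order is not resolved. Hoxb9 was 1.23-fold higher (0.87 to 1.74) and Hoxc13 13.0-fold (8.76 to 20.1). Hoxd1 had 0.153 CPM (11 UMIs) in Epi cells and 0.092 CPM (5 UMIs) in VE cells. Hoxd13 had 0.097 and 0.57 CPM and Hoxb8 0.083 and 0.86 CPM, in the same order. In UMIs, Hoxb9 had 73 and Hoxa7 10 in Epi cells, and Hoxb9 68 and Hoxa7 451 in VE cells. The part of free RNA in these levels was not tested, and the Epi cysts gave no such comparison, since only 1 VE cell was kept there.

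A difference between groups was called where the ratio of (level + 5 CPM) was at least 2-fold, over genes with at least 10 UMIs in both groups together. A gene under 5 CPM in both groups could therefore not be called, whatever its fold. From Epi cysts to Epi cells of BELAs, 4 members were called lower, Hoxa2, Hoxb1 and Hoxb2 among them, with 0.763% of 16906 genes called lower, and 0 were called higher, with 0.71% of genes called higher. Only 14 of the 39 members passed the count filter there, and the 25 others could not have been called. Of the 14, only the 4 called reached 5 CPM in either group. The log2 values of Hoxa2, Hoxb1 and Hoxb2 were -1.81, -2.61 and -2.89. With 1 CPM added in place of 5, 6 members were called lower (also Hoxa3 and Hoxa5) beside 1.89% of genes. The median over the 14 members was -0.13 on this log2 scale (-0.12 with the 3 members at 0 in BELAs set to 3 counts) and over all genes tested it was -0.0017; the median is small because most members are far below the added 5 CPM. Clusters Hoxc and Hoxd did not differ beyond counting error between the Epi groups (ratios of BELAs to Epi cysts 1.04, 0.57 to 1.96, and 0.67, 0.37 to 1.24), and neither did paralogue groups 6 to 13 together (1.33, 0.99 to 1.80).

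VE cells carried many members at low levels. In VE cells of BELAs 36 of 39 were detected and 11 reached 1 CPM, and in VE cells of VE cysts 34 were detected and 15 reached 1 CPM. Members at 0 in both were Hoxa6, Hoxb5 and Hoxd12, of which Hoxa6 and Hoxd12 had no UMI in any of the 4 main groups. The 5 highest were the same genes in both libraries, and 12 of the 15 members at 0 in Epi cysts had a UMI in both VE groups.

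Hoxa7 and Hoxb7, genes of the thoracic region, led. Hoxa7 had 8.27 CPM (7.53 to 9.07; 255 of 542 cells) in VE cells of BELAs and 8.59 CPM (7.66 to 9.62; 200 of 577 cells) in VE cells of VE cysts, against 0.139 CPM in Epi cells of BELAs and 0.42 CPM in Epi cyst cells. Hoxb7 had 7.08 CPM (6.39 to 7.82) and 4.96 CPM (4.25 to 5.75) in the VE groups, against 0.111 and 0.245 CPM in the Epi groups. The 2 genes make up the whole of paralogue group 7, which held 32.1% of the Hox UMIs of VE cells in BELAs and 28.4% in VE cysts.

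Hoxc13, a gene of hair and nail known for the most posterior positions, had 4.88 CPM (4.31 to 5.50) in VE cells of BELAs and 3.80 CPM (3.19 to 4.50) in those of VE cysts. Hoxb4, which acts in the neck region and in blood stem cells, had 3.49 CPM (3.01 to 4.02) and 4.59 CPM (3.92 to 5.36). Hoxa10, a gene of the lumbar spine and the uterus, had 2.73 and 1.92 CPM, and Hoxc9, which sets thoracic motor neuron fate, 2.48 and 3.10 CPM. These members came from clusters a, b and c, and cluster d added Hoxd8 (2.13 and 2.37 CPM) and Hoxd9 (1.87 and 1.35 CPM). From Hoxb4 to Hoxb9 in BELAs and from Hoxb7 to Hoxd13 in VE cysts, the intervals of all neighbours in the order overlapped. Those of Hoxc13 and Hoxb4 in BELAs did not overlap.

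Between the VE groups 0 of 29 members tested were called higher and 0 lower in BELAs, with 0.978% and 1.76% of 16264 genes called; with 1 CPM added, 0 members were called either way, with 2.39% of genes called higher and 5.11% lower. Only Hoxa7 and Hoxb7 reached 5 CPM in VE cells of BELAs, and only Hoxa7 in those of VE cysts. The other members could not be called with 5 CPM added, so the 0 calls do not show that their levels were alike. The median log2 ratio of the members was 0.0016, against -0.06 over all genes tested. The share of all genes whose counting interval excludes 1 was not computed, so the counts that follow have no background beside them. Counting intervals of single members, not adjusted for their number, lay above 1 for 6 members (Hoxa10, Hoxb7, Hoxb8, Hoxc6, Hoxc10 and Hoxc13) and below 1 for 6 (Hoxa3, Hoxa5, Hoxb4, Hoxb13, Hoxc4 and Hoxd13) of 34 with a UMI in both. Examples were Hoxb8 at 0.86 and 0.31 CPM (2.78-fold higher in BELAs, 1.42 to 5.95), Hoxb7 (1.43-fold, 1.19 to 1.72) and Hoxb13 at 0.275 and 1.04 CPM (3.79-fold lower in BELAs, 2.03 to 7.43). Paralogue groups 3 to 5 summed to 7.54 CPM and 10.9 CPM (ratio of BELAs to VE cysts 0.69, 0.60 to 0.80), and groups 6 to 13 to 35.6 and 32.3 CPM (ratio 1.10, 1.03 to 1.19). VE cysts had FGF4, heparin and a further 16 h of doxycycline, and BELAs did not. Aggregate type, added factors, length of doxycycline treatment and library therefore cannot be told apart.

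**Figure D2:**
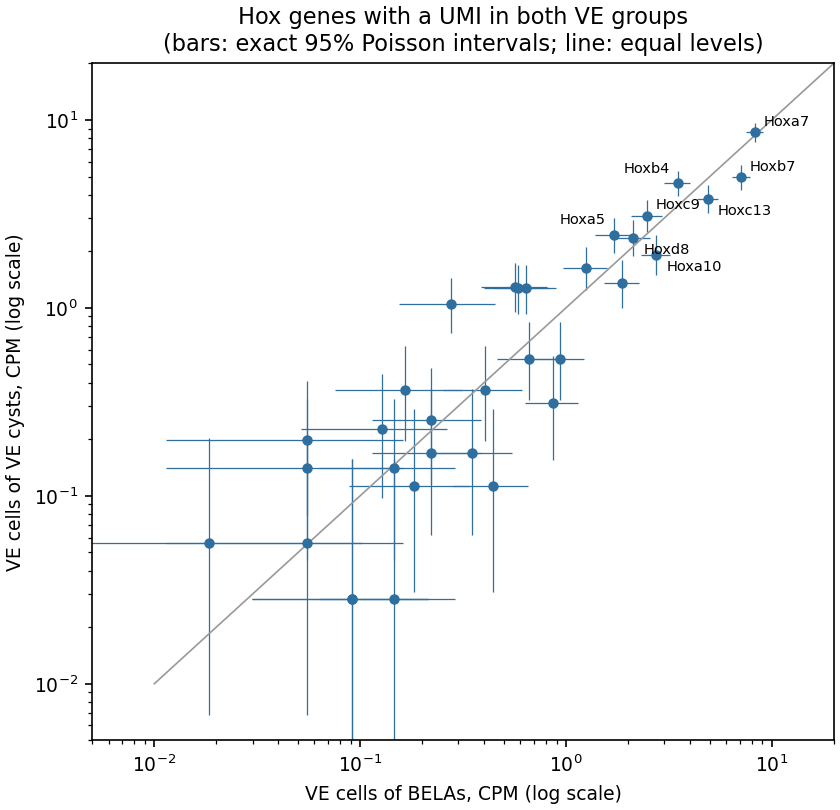
Level of Hox genes with a UMI in both VE groups, VE cells of BELAs on the horizontal and VE cells of VE cysts on the vertical axis (CPM, both log; bars are exact 95% Poisson intervals, the line marks equal levels). Points scatter along the line over the whole range of levels, with Hoxa7 highest at 8.27 and 8.59 CPM.

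Within BELAs, 2 of 26 members tested were called higher in VE than in Epi cells (Hoxa7 and Hoxb7), beside 8.07% of 17295 genes, and with 1 CPM added 10 were, beside 12.3% of genes. No other member reached 5 CPM in either group, so no other could be called with 5 CPM added. Counting intervals lay above 1 for 19 of the 24 members with a UMI in both groups, and below 1 for 0. The share of all genes with such intervals was not computed, so this count has no background beside it. The median log2 ratio of the 26 was 0.17 (0.17 also with members at 0 set to 3 counts) against -0.038 over all genes tested. Against VE cells of BELAs, Epi cyst cells had 4 of 30 members called higher (Hoxa2, Hoxb1 and Hoxb2 among them; 6.77% of 16621 genes) and 2 called lower (Hoxa7 and Hoxb7; 9.05% of genes). Here too, only the called members reached 5 CPM in either group. Paralogue groups 1 and 2 together were 30.1-fold higher in Epi cyst cells (26.5 to 34.3) and group 7 was 23.2-fold lower (15.9 to 35.5), while group 5 did not differ beyond counting error (1.03, 0.75 to 1.41). These comparisons share groups of cells, so their values are not independent of each other.

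Hox UMIs were spread less evenly over Epi cyst cells than over VE cells. Of the 656 Epi cyst cells 75.3% (71.8 to 78.6) held a Hox UMI, with a median of 5 UMIs, quartiles at 1 and 15 and a maximum of 53, and the 66 cells with the most UMIs held 33.5% of all. Of the VE cells 95.02% (BELAs) and 86.7% (VE cysts) held one, with medians of 4 and 2 UMIs and maxima of 23 and 14, and of the Epi cells of BELAs 16.2% (13.9 to 18.9). After thinning every cell to 40000 UMIs, which left out 64, 67, 28 and 104 shallower cells of Epi cysts, BELA Epi, BELA VE and VE cyst VE, the shares were 72.5%, 8.86%, 82.7% and 81.6%. Thinned counts had a variance 8.93 times their mean in Epi cyst cells and 1.498 and 1.31 times in the VE groups. In Epi cells of BELAs it was 1.39 times, where 1 is the value of counting noise alone. The means were 6.15, 2.00, 1.95 and 0.114 UMIs in the same order. Because the ratio rises with the mean, it does not rank the groups by evenness. Before thinning, the 87 Epi cells of BELAs with the most Hox UMIs held 70.9% of all in that group. Among thinned Epi cyst cells 27.5% held no Hox UMI, 15.9% held 11 to 20 and 6.42% held more, whereas no thinned VE cell held more than 10. The cell's depth before thinning and its mitochondrial share had Pearson's r of -0.01 and 0.08 with the summed Hox level over the 592 thinned Epi cyst cells.

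**Figure D3:**
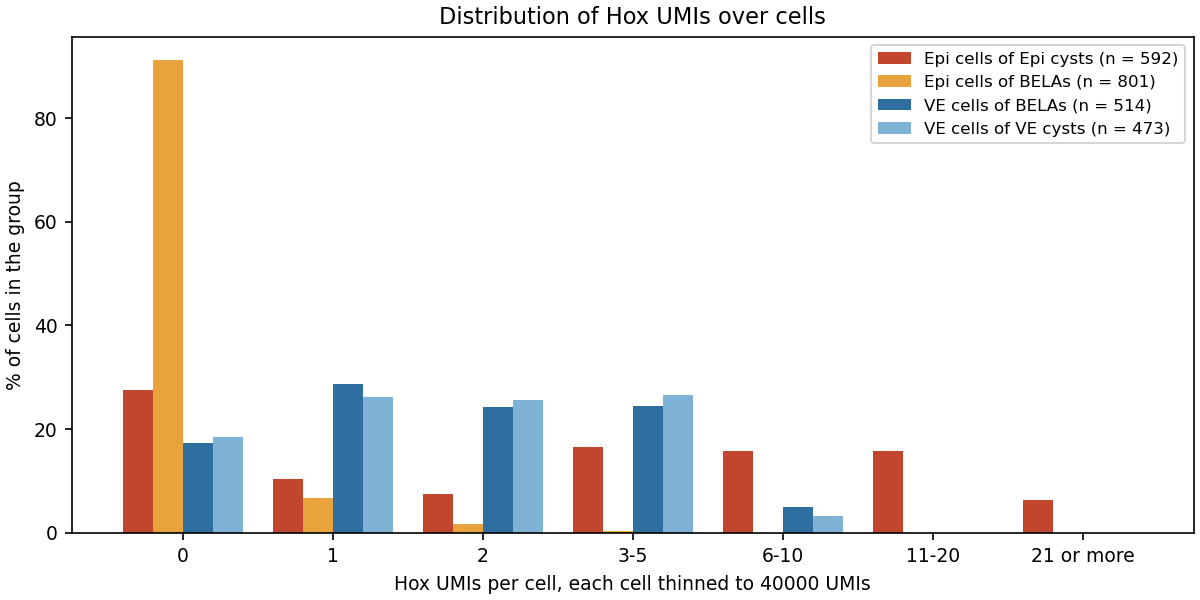
Share of cells by their number of Hox UMIs after thinning to 40000 UMIs, for the 4 main groups (592, 801, 514 and 473 cells). Epi cells of BELAs sit almost wholly at 0, VE cells of both libraries at 1 to 5, and Epi cyst cells reach from 0 (27.5%) to above 20 UMIs (6.42%).

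The leading members were found together in the same Epi cyst cells. Of the 592 thinned cells Hoxb1 and Hoxb2 were both found in 179, where the product of their shares gives 88.0, and their levels had r = 0.71. Hoxa2 was found together with Hoxb2 in 129 cells against 62.9 (r = 0.56) and with Hoxb1 in 126 against 68.3 (r = 0.49). Hoxb2 was found in 75.2% of the cells with Hoxb1, 75.9% of those with Hoxa2 and 71.2% of those with Hoxa3. The lowest r among the 5 members described singly was that of Hoxa3 and Hoxa5, 0.13, with 9 joint cells against 3.90. The 8 highest members in VE cells of BELAs were paired in both VE groups, and of these Hoxa10 ranked 9 in VE cysts. Their 28 pairs had r between -0.07 and 0.11 in BELAs and between -0.05 and 0.14 in VE cysts. Joint counts lay at a median of 0.999 and 1.07 times the product. These are values over cells of single libraries, and the low levels in VE cells leave little room for a correlation to appear.

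**Figure D4:**
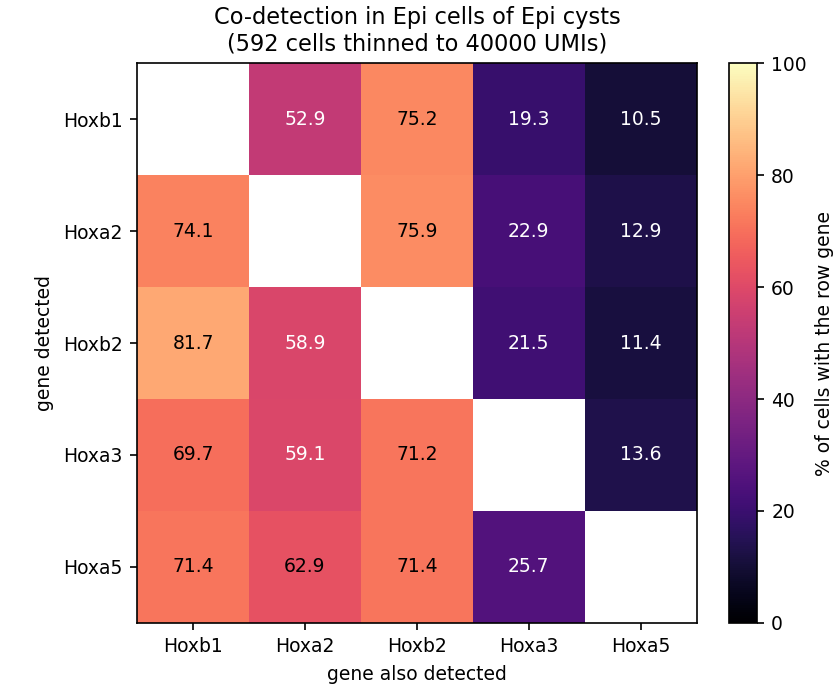
Percentage of Epi cyst cells holding the row gene that also held the column gene, for 5 members above 1 CPM (592 cells thinned to 40000 UMIs). The Hoxb1 and Hoxb2 columns are the brightest, at 69.7% to 81.7%, and the Hoxa3 and Hoxa5 columns the darkest.

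Of 9181 genes with at least 5 CPM in Epi cyst cells, those whose level over the thinned cells was most like the summed Hox level were Hotairm1 (r = 0.73), a noncoding gene of the Hoxa cluster, Meis2 (0.67), a partner of HOX proteins on DNA, Epha4 (0.60), an ephrin receptor of hindbrain segments, Wnt8a (0.57), a Wnt ligand of the gastrulating embryo, Olig3 (0.54), Gbx2 (0.53), Tnfrsf19, Cited2, Epha2 and Tceal8 (0.49 to 0.42). Of these Meis2 had 128.8 CPM in Epi cyst cells and 0.43 CPM in Epi cells of BELAs, Wnt8a 44.2 and 0.25 CPM, and Gbx2, which marks the anterior hindbrain, 52.7 and 1.00 CPM. At the other end, looked up after the values were seen, were Dnmt3b and Otx2 (both -0.49), a DNA methyltransferase of the epiblast and a forebrain and anterior epiblast factor. The mesoderm gene T had r = 0.19 and the caudal genes Cdx1 and Cdx2 0.22 and 0.32. All r are over cells of 1 library that share its base composition and depth.

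Noncoding genes of the clusters were also counted. Hotairm1 had 72.4 CPM in Epi cyst cells and 0.44 CPM in Epi cells of BELAs, 163-fold (115 to 239), and 4.37 and 6.40 CPM in the VE groups. Hoxb3os, antisense to Hoxb2 over 953 exon bases, had 6.07 CPM and 2 UMIs in the Epi groups. Of 11 such genes 6 passed the filter and these 2 were called lower in BELAs. In all, 10 members share exon bases with an antisense gene and 4 with another member on the same strand (Hoxc5 with Hoxc10, Hoxd3 with Hoxd4), and how such UMIs were assigned is not given in the sources used here, so the level of Hoxb2 beside its partner is uncertain to that extent. Of 9 tested genes that flank the clusters 1 was called, where Skap2, near the Hoxa cluster, was lower in BELAs (43.4 and 15.9 CPM, 2.73-fold, 2.53 to 2.94), and Evx1 and Evx2, beyond Hoxa13 and Hoxd13, had 0 UMIs in both Epi groups.

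Of the 9 HOX cofactors 1 was called lower in BELAs, Meis2 as above. In VE cells the cofactors with the highest levels were Pbx2 (21.8 and 26.1 CPM), Pknox1 (17.2 and 17.0 CPM) and Meis2 (14.5 and 19.4 CPM). Of 12 genes upstream of Hox 10 were tested and 4 were called lower in Epi cells of BELAs: T (19.6 and 0.35 CPM), Gbx2, and the retinoid-binding genes Crabp1 (148.6 and 12.0 CPM) and Crabp2 (123.6 and 58.0 CPM). Cdx1 and Cdx2, which activate central Hox genes, had 3.79 and 5.04 CPM in Epi cyst cells against 0.069 and 0.028 CPM and did not pass the call with 5 CPM added, and Wnt3a had 0 UMIs in Epi cyst cells. The retinoid-degrading gene Cyp26a1 had 0.22 and 1.97 CPM in the 2 Epi groups (Epi cysts first), and in VE cells it had 151.3 CPM for BELAs and 94.5 CPM for VE cysts. Of 19 Polycomb and Trithorax genes, which hold Hox genes silent or active, 1 was called lower, Phc2 (32.0 and 12.2 CPM), and the methyltransferase Ezh2 had 204.2 and 200.5 CPM in the Epi groups.

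Markers of other cell types that Epi cyst cells could hold were read beside these values. Of 10 hindbrain and neural markers, Irx3 (19.2 and 1.61 CPM) and Olig3 (19.0 CPM and 0 UMIs) were called lower in Epi cells of BELAs, and the list summed to 50.9 and 7.67 CPM, with the hindbrain segment gene Egr2 at 1.03 and 1.28 CPM. Of 10 mesoderm markers 8 were tested and T was called lower, with list sums of 27.5 and 16.0 CPM and the paraxial mesoderm gene Msgn1 at 0 in both. The difference of the sums came from T (19.6 and 0.35 CPM), while Tcf15 went the other way (6.68 and 14.3 CPM). The other listed mesoderm markers were under 1 CPM in both Epi groups. Of 7 extraembryonic mesoderm and trophoblast markers 5 were tested and Hand1 was called higher in Epi cells of BELAs (0.024 and 6.19 CPM), with list sums of 8.12 and 13.4 CPM. Of the 4 VE markers Dab2 and Cubn were called higher there, and of the 4 Epi markers Fgf4 was (7.29 and 21.9 CPM). These markers are the genes of the lineage rule, so their levels depend on how the Epi groups were chosen. Of 5 gut endoderm markers 4 were tested and 0 called (sums 170.2 and 185.1 CPM). The sums were mostly Trh (118.1 and 93.8 CPM) and Cldn6 (50.7 and 88.6 CPM). Foxa2, Sox17 and Cer1 each had at most 1.66 CPM in the Epi groups. The part of any of these cells in the Hox levels was not tested.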

How the data were processed

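Cells were profiled with the Chromium 3′ single-cell kit, 1 library each for BELAs, Epi cysts and VE cysts. The authors aligned reads to mm10 (annotation GENCODE vM23/Ensembl 98) and counted UMIs with Cell Ranger 4.0.0. The deposited values are raw counts, whole UMIs per gene and cell barcode, without normalization. The strand setting of the counting is not given in the sources used here. From 2220, 1076 and 881 barcodes of BELAs, Epi cysts and VE cysts, 1410, 657 and 625 had 4000 or more detected genes with no more than 10% of UMIs mitochondrial, and were kept. Total UMIs per group ran from 4306331 to 72108590, so that 3 counts, the limit given for a count of 0, were 0.042 to 0.697 CPM. Ties of the lineage rule (1 and 4 cells in Epi cysts and VE cysts) went to Epi. Scrublet, run per library through scanpy 1.11.5, called 33, 11 and 1 doublets, which were kept except in 1 alternative.

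UMIs were summed per library and lineage and divided by all UMIs of the group (CPM) in Python 3.11.15 with numpy 2.4.6, scipy 1.17.1 and pandas 2.3.3. Intervals are exact Poisson, exact binomial for shares and for ratios of counts, at 95%, and cover counting error only. Cells are not replicates, and no p-value was computed. Members and gene lists were chosen with earlier results of these data known. All members were accounted for, those of at least 1 CPM in Epi cyst cells were described singly (some genes enter the sums and counts and are not reported singly here), and other genes were the lists and the 10 most correlated with the summed Hox level (log1p CPM, thinned cells). VE leaders, Hoxb9 and the least correlated genes were named after their values were seen. Gene positions are from GENCODE vM21 and promoter windows from RefSeq, both GRCm38, the assembly of mm10. Alternatives changed the added CPM (1 or 20), the count filter, the cell filter (3000 genes, 20% mitochondrial UMIs), the lineage rule (a margin of 5 times), depth (thinning to 40000 UMIs), doublets, pooling of cells, and the 5% of Epi cyst cells highest in Hox.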

Additional observations from a re-analysis of the deposited data

Results flagged for a closer look

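Barcodes that failed the cell filter, which the report does not use, also held Hox UMIs, above the limit that a count of 0 allows. The 810 such barcodes of BELAs had a summed Hox level of 27.7 CPM (24.1 to 31.7), made of 50.2 CPM in those called VE and 5.34 CPM in those called Epi, beside 47.8 and 2.62 CPM in the kept cells. The 419 of Epi cysts had 88.7 CPM (77.3 to 101), beside 147 CPM in the kept Epi cells. The 256 of VE cysts had 45.9 CPM (37.5 to 55.6), from barcodes called VE at 49.7 CPM and 0 UMIs in the 51 called Epi. Median depths of these barcodes were 6229, 3979 and 6724.5 UMIs.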

How the results depend on the processing

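Each of the 8 summary results was recomputed under up to 9 alternatives, and 38 of 47 recomputed values stayed within counting error of the reported one, or, for the count of members called lower, within 1.5 times. The count of members called lower in Epi cells of BELAs was 6 with 1 CPM added, 3 with 20 CPM added and 4 in the other alternatives. The median log2 ratio of -0.13 was -0.57 with 1 CPM and -0.035 with 20 CPM added, and 0 over all 39 members without the count filter, where members at or near 0 in both groups set it. Thinned to 40000 UMIs it was -0.29 over 12 members. The summed level in Epi cyst cells was 153.8 CPM after thinning, 154 CPM as the mean of per-cell CPM and 125 CPM without the 5% of cells highest in Hox, which removes them by construction. In Epi cells of BELAs the mean of per-cell CPM was 3.06. The share of Hox UMIs in the 10% of Epi cyst cells highest in Hox was 38.4% after thinning. The cause of the changes with thinning and with the per-cell mean was not tested. Depth limits statements on members of 1 to 3 UMIs, 8 in Epi cyst cells and 16 in Epi cells of BELAs. No paired analysis was possible because each aggregate has 1 library.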
